A study of Mus musculus with 29 samples.

Results

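The comparison described here set HdhQ150 mice of 18 months against HdhQ150 mice of 6 months, over every gene with 1 symbol on the array. Its members were the arrays whose titles give that genotype and those ages, 4 at 18 months and 5 at 6 months, or 9 of the 29 arrays of the series. HdhQ150 mice carry an expanded CAG repeat knocked into the mouse huntingtin gene, Htt, and are a model of Huntington's disease. The labels do not say whether the mice had 1 copy of the allele or both. They give the strain as 129/Ola x C57BL6/J and the tissue as caudate nucleus, a division of the striatum, and list no treatment. All 4 HdhQ150 mice of 18 months (numbers 383, 412, 415 and 426) were female. The 6-month group held mice 1001, 1016, 1017 and 1023, labelled female, and the male 1003. Wild-type littermates of the same ages, 4 at 18 months (all female) and 5 at 6 months (3 labelled female, 2 male), are given beside them. Mice of 12 months give the age between, 6 HdhQ150 (4 labelled female, 2 male) and 5 wild-type (4 labelled female, 1 male). Mice of different ages were different animals. Each value is a log2 level, so a difference of 1 is a doubling, and differences are 18 minus 6 months unless another pair is named.

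The striatum consists mainly of inhibitory projection neurons, which receive input from cortex and thalamus and dopamine from the midbrain. They are divided into direct pathway cells, with the D1 dopamine receptor and the peptides dynorphin and substance P, and indirect pathway cells, with the D2 receptor and enkephalin. Both express a set of signalling genes that are sparse elsewhere in the brain, among them the phosphodiesterase gene Pde10a and the phosphatase inhibitor gene Ppp1r1b. In Huntington's disease these transcripts are known to decline before or along with the neurons. In whole tissue, fewer cells of a type and less RNA per cell cannot be told apart.

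Array medians over the series lay between 6.91 and 7.05, and precision is limited by how few arrays there were. Mouse 1023 went against its label. Its Xist, the transcript of the inactive X chromosome, stood at 5.95 and its Y-linked Eif2s3y at 8.30, whereas the other labelled females of its group had Xist at 11.11 to 11.27 and Eif2s3y at 3.78 to 4.05. The 6-month mice bear numbers from 1001 up and the 18-month mice lower ones. The sources used here do not say whether the ages were collected and hybridised together, so age and batch cannot be told apart. Tissue markers were present in all 9 arrays. The mean over 29 projection neuron markers was 9.40 to 9.69 in the 18-month mice and 9.60 to 9.99 in the 6-month mice. The mean over 11 markers of cortical excitatory neurons was 8.46 to 9.14 in the 18-month mice and 8.34 to 9.0 in the 6-month mice, and that over 12 choroid plexus markers 6.43 to 6.88 in the 18-month mice and 6.38 to 7.58 in the 6-month mice.

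With age 927 of 19938 genes, 4.65%, passed the threshold of 0.05 on the adjusted p (limma, Benjamini-Hochberg over all genes). Of these 473 fell (2.37% of all genes) and the rest rose (2.28%). With mouse 1023 entered as male in the fit, 820 genes passed, 389 of them higher. Without that mouse the counts were 481 higher and 534 lower. They fell to 543 in all without mouse 412, 518 without mouse 1001 and 421 without mouse 1016, and rose to 1646 without mouse 1023 together with a 12-month wild-type mouse that stood apart from its group. Most changes were modest. Changes of at least 1.5-fold were seen in 63 genes that rose and 28 that fell, and changes of at least 2-fold in 7 that rose and 1 that fell. In 730 of the 927 the 4 older mice all lay on 1 side of the 5 younger mice, which held for 9.32% of all genes tested. The 2 directions differed in brightness. In the dimmest 25% of genes by mean level 163 rose and 3 fell, and in the brightest 25% 142 rose and 340 fell. When each array was centred on its own median, 271 genes rose and 606 fell.

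**Figure D1:**
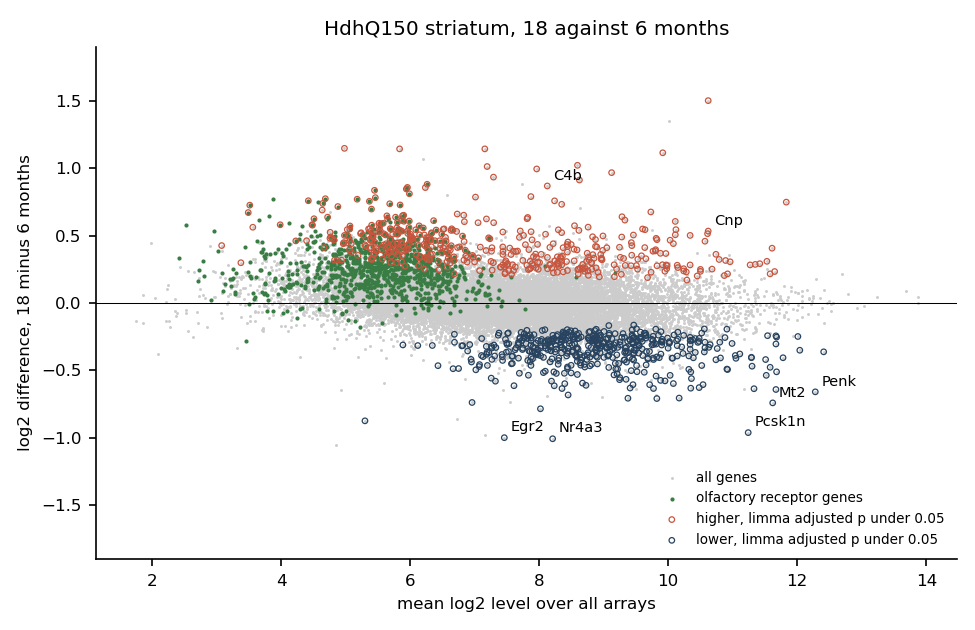
Difference between HdhQ150 mice of 18 and 6 months (log2, vertical axis) against the mean level over all 29 arrays (log2, horizontal axis), 1 point per gene. Red rings are the genes that rose, blue rings the 473 that fell and green dots the 1027 olfactory receptor genes, most of which lie above 0 on the dim side.

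Olfactory receptor genes, which encode odorant receptors of the nasal epithelium, moved with age on these striatal arrays. Their mean over 1027 genes was 5.59, 5.57, 5.47 and 5.48 in the 18-month HdhQ150 mice 383, 412, 415 and 426, and 5.22, 5.28, 5.10, 5.40 and 5.29 in the 6-month mice 1001, 1003, 1016, 1017 and 1023. The groups did not overlap. The list was chosen after it was seen to move, and 138 of its genes (13.4%, against 4.65% of all genes) rose and 0 fell (limma) with a median difference of 0.25, against 0.017 over all genes. The count was 56 without mouse 383, 52 without 412, 89 without 415, 64 without 1001 and 36 without 1016. By the unadjusted p under 0.05 the counts were 486 higher and 1 lower. In wild type 317 rose and 0 fell. With each array's olfactory receptor mean as a covariate, an alternative chosen after this was seen, 103 genes rose and 50 fell in HdhQ150 mice. Of the 102 named genes that passed, 40 still passed then. Whether the shift of dim probe sets has a part in the other results was not tested beyond this fit. The covariate itself parts the 2 ages, so the fit cannot decide it. Some differences shrank there, as for Nr4a3 (-1.01, and -0.73 with the covariate). Calls were also lost without a smaller difference, as for Cnr1 (-0.49 in both fits, limma adjusted p = 0.00626, and 0.0861 with the covariate). Counts of this fit are given with the gene groups below.

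Genes typical of projection neurons were lower at 18 months. Of 29 markers tested, 16 fell and 0 rose (55.2%, against 4.65% of all genes), 28 differences were negative and the median was -0.35. In the limma fit 24 had an unadjusted p under 0.05 and were lower, and 0 were higher. The 16 were Scn4b, Gng7, Ryr1, Rasgrp2, Hpca, Kcnip2, Pde10a, Gnal, Actn2, Cnr1, Rxrg, Phactr1, Rasd2, Ppp1r1b, Spata2l and Rarb. Leaving out 1 HdhQ150 mouse at a time gave 12 to 18 that fell, and 15 fell without mouse 1023. A fit on only the groups compared gave 9. With the olfactory receptor covariate the median was -0.30 and 1 member passed.

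The enkephalin precursor gene Penk (probe set 10511363, chromosome 4) led the neuropeptides. Its levels were 11.34, 11.33, 11.87 and 11.55 in the 18-month mice 383, 412, 415 and 426, against 12.27, 12.06, 12.18, 12.02 and 12.39 in the 6-month mice 1001, 1003, 1016, 1017 and 1023. Every older mouse lay below every younger one, and mice 383 and 412 were lowest. Values of single mice are given in the order of these numbers from here on. The means were 11.52 ± 0.25 at 18 months (SD, n = 4) and 12.18 ± 0.15 at 6 months (SD, n = 5), a fitted difference of -0.66 (SE 0.0957, limma adjusted p = 0.000247), 1.58-fold. The fit holds a sex term, so fitted differences depart a little from those of the means. Wild-type mice had 12.16, 12.11, 12.41 and 12.33 at 18 months and 12.53, 12.81, 12.49, 12.63 and 12.54 at 6 months, a difference of -0.35 (limma adjusted p = 0.0327).

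Scn4b (probe set 10584862, chromosome 9) encodes the sodium channel beta subunit that shapes resurgent current in these neurons. It stood at 8.66, 8.87, 9.16 and 8.91 in the 18-month mice, against 9.67, 9.50, 9.96, 9.12 and 9.76 in the 6-month mice. The groups met, since mouse 1017 lay just below mouse 415. Scn4b fell by 0.71 (SE 0.132, limma adjusted p = 0.00227), the largest fall in the marker list. Gng7, the G protein gamma subunit that couples striatal receptors to adenylyl cyclase, was 11.36, 10.96, 11.49 and 11.11 at 18 months and 11.92, 11.59, 11.71, 11.62 and 11.93 at 6 months. These groups did not overlap, and the difference was -0.51 (SE 0.0969, limma adjusted p = 0.00268). Its partner Gnal, the olfactory type G protein alpha subunit, fell by 0.49 (limma adjusted p = 0.00518).

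Among the second messenger genes, Pde10a was 10.72, 10.73, 11.09 and 10.86 in 18-month mice and 11.32, 11.13, 11.39, 10.98 and 11.51 in 6-month mice. It fell by 0.42 (SE 0.0873, limma adjusted p = 0.00509), with mouse 1017 again inside the older range. Ppp1r1b, which encodes DARPP-32, fell by 0.41 (SE 0.0998, limma adjusted p = 0.0166), and its groups overlapped at mice 1003 and 1017. The cannabinoid receptor gene Cnr1 was 7.91, 8.06, 7.89 and 8.10 in 18-month mice and 8.35, 8.46, 8.62, 8.30 and 8.56 in 6-month mice. It had no overlap and fell by 0.49 (SE 0.105, limma adjusted p = 0.00626). The calcium sensor Hpca fell by 0.48, the guanine nucleotide exchange factor Rasgrp2 by 0.53 and the ryanodine receptor Ryr1 by 0.41, each without overlap (limma adjusted p between 0.00307 and 0.00377). The nuclear receptor genes Rxrg and Rarb differed by -0.51 and -0.35 (limma adjusted p = 0.00796 and 0.0496).

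The markers that divide the direct and indirect pathway gave few calls, in numbers that varied between fits. Of 9 direct pathway genes 1 fell (11.1%, against 4.65% of all genes), the muscarinic receptor gene Chrm4 (-0.36, SE 0.0803, limma adjusted p = 0.00811). The count was 4 without mouse 415 and in labelled females, and 3 without mouse 1003 or 1017. Of 8 indirect pathway genes 2 fell (25%), Penk and the transcription factor gene Sp9 (-0.32, limma adjusted p = 0.0487). That count was 4 without mouse 1003 and in labelled females, and 1 without mouse 412, 426, 1001 or 1016. Penk alone of both lists passed with the olfactory receptor covariate. The dopamine receptor genes missed the threshold narrowly. Drd1 was 9.25, 8.97, 9.53 and 8.95 at 18 months and 9.67, 9.32, 9.58, 9.25 and 9.76 at 6 months (-0.34, limma adjusted p = 0.0528). Drd2 was 10.30, 10.02, 10.52 and 10.17 at 18 months and 10.76, 10.37, 10.83, 10.23 and 10.80 at 6 months (-0.35, limma adjusted p = 0.0513). For both, mouse 415 was the highest of the older mice and 1017 the lowest of the younger ones, and the groups overlapped. The dynorphin precursor Pdyn differed by -0.43 (limma adjusted p = 0.0607) and the tachykinin precursor Tac1 by -0.16 (limma adjusted p = 0.657). The glutathione peroxidase gene Gpx6 differed by -0.39 (limma adjusted p = 0.11). Htt itself had 8.61, 8.99, 8.88 and 8.91 at 18 months and 8.77, 8.74, 8.73, 8.75 and 8.88 at 6 months, a difference of 0.05 (limma adjusted p = 0.771).

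**Figure D2:**
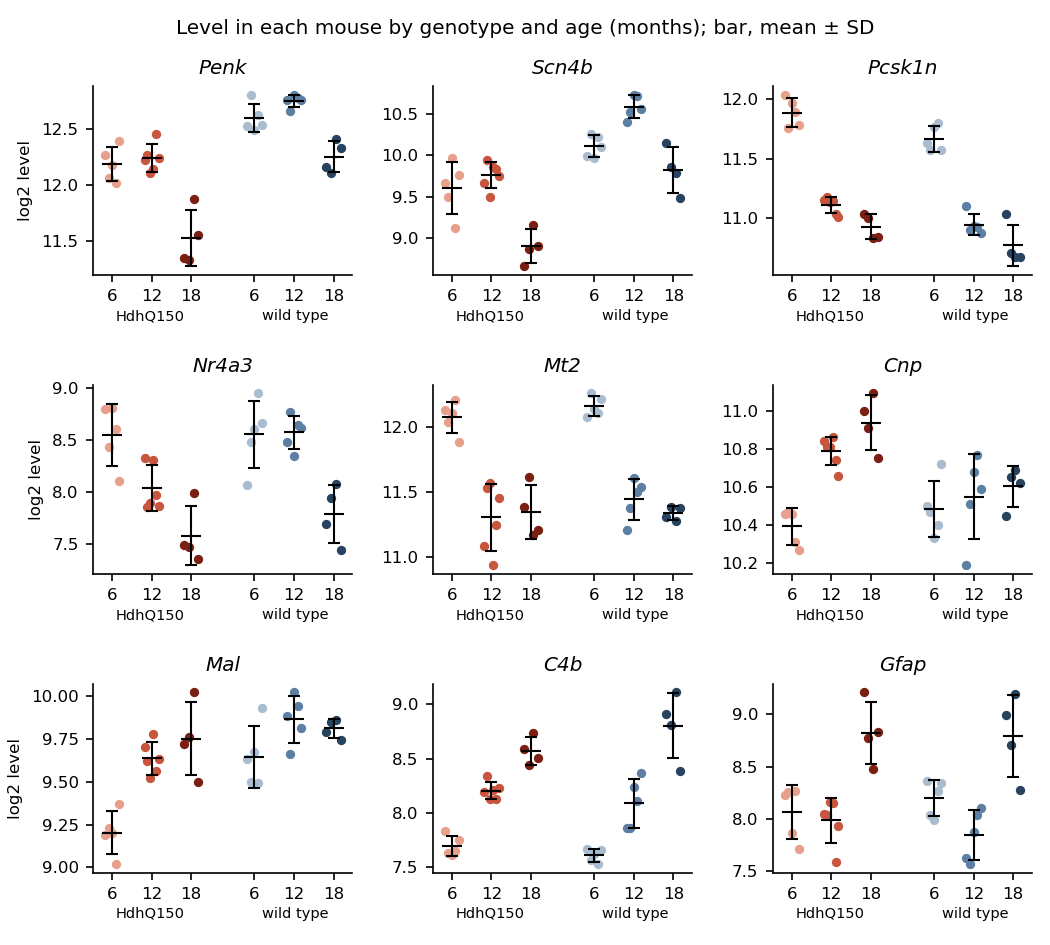
Log2 level of 9 genes in each mouse by genotype and age in months, with bars for the mean ± SD. Penk, Scn4b, Pcsk1n, Nr4a3 and Mt2 are lower in the 18-month than in the 6-month HdhQ150 mice, and Cnp, Mal, C4b and Gfap are higher.

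Of 11 interneuron markers 1 fell (9.09%, against 4.65% of all genes), the somatostatin gene Sst (probe set 10438730, chromosome 16). The list's median was -0.30, with 6 lower and 1 higher by the unadjusted p under 0.05 (limma). The count was 2 without mouse 412 or 415, 3 without mouse 1003 and 4 in labelled females, and Sst alone passed with the olfactory receptor covariate. Its levels were 11.28, 11.06, 11.25 and 11.06 in the 18-month mice, against 11.86, 11.82, 11.94, 11.90 and 11.54 in the 6-month mice. The groups did not overlap, with mouse 1023 the lowest of the younger ones, and the difference was -0.64 (SE 0.108, limma adjusted p = 0.000971). Npy, a neuropeptide of the same interneurons, differed by -0.35 (limma adjusted p = 0.0528), the calcium-binding protein gene Pvalb by 0.54 (limma adjusted p = 0.23) and the acetylcholine synthesis gene Chat by -0.23 (limma adjusted p = 0.342).

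Among potassium channel genes 5 of 40 fell (12.5%, against 4.65% of all genes) and 0 rose, and 3 fell without mouse 412. The unadjusted p of the limma fit was under 0.05 for 12 that were lower and 3 that were higher. Those past the threshold included the pore subunits Kcnd2 (-0.34, limma adjusted p = 0.00726) and Kcnd3 (-0.34, limma adjusted p = 0.0298) and the subunits that bind them, Kcnip2 (-0.41, limma adjusted p = 0.00404) and Kcnip3 (-0.49, limma adjusted p = 0.00509), which form the A-type current. The fifth was Kcng1, a modifying subunit, at 8.93, 8.67, 8.85 and 8.81 in 18-month mice and 9.26, 9.13, 9.25, 9.08 and 9.05 in 6-month mice. It had no overlap and fell by 0.34 (SE 0.0782, limma adjusted p = 0.0109). Of 14 genes of GABA receptors and GABA synthesis 2 fell (14.3%), the receptor subunits Gabra2 (-0.71, SE 0.165, limma adjusted p = 0.011) and Gabrg3 (-0.41, limma adjusted p = 0.0443). Gabra2 was 8.43, 8.64, 8.77 and 9.38 at 18 months and 9.51, 9.38, 9.48, 9.49 and 9.70 at 6 months, so mouse 426 stood with the younger mice. The GABA count was 0 without mouse 383 and 1 without any other mouse but 415 or 1003. Of 23 presynaptic vesicle genes 3 fell (13%), the synapsins Syn3 (-0.38, limma adjusted p = 0.000288) and Syn2 (-0.31, limma adjusted p = 0.0177) and the fusion protein gene Snap25 (-0.36, limma adjusted p = 0.0041). None of 21 glutamate receptor genes passed (limma), with 3 lower at an unadjusted p under 0.05 and a median of -0.10. Of 27 calcium signalling genes 3 fell (11.1%), Ryr1, Hpca and Cacng3, an auxiliary subunit of AMPA receptors (-0.61, limma adjusted p = 0.00498). Ryr1, Hpca and, among the potassium channels, Kcnip2 were already counted with the projection neuron markers. With the olfactory receptor covariate 0 of the potassium channel, GABA and calcium genes passed, and Syn3 alone of the presynaptic ones.

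**Figure D3:**
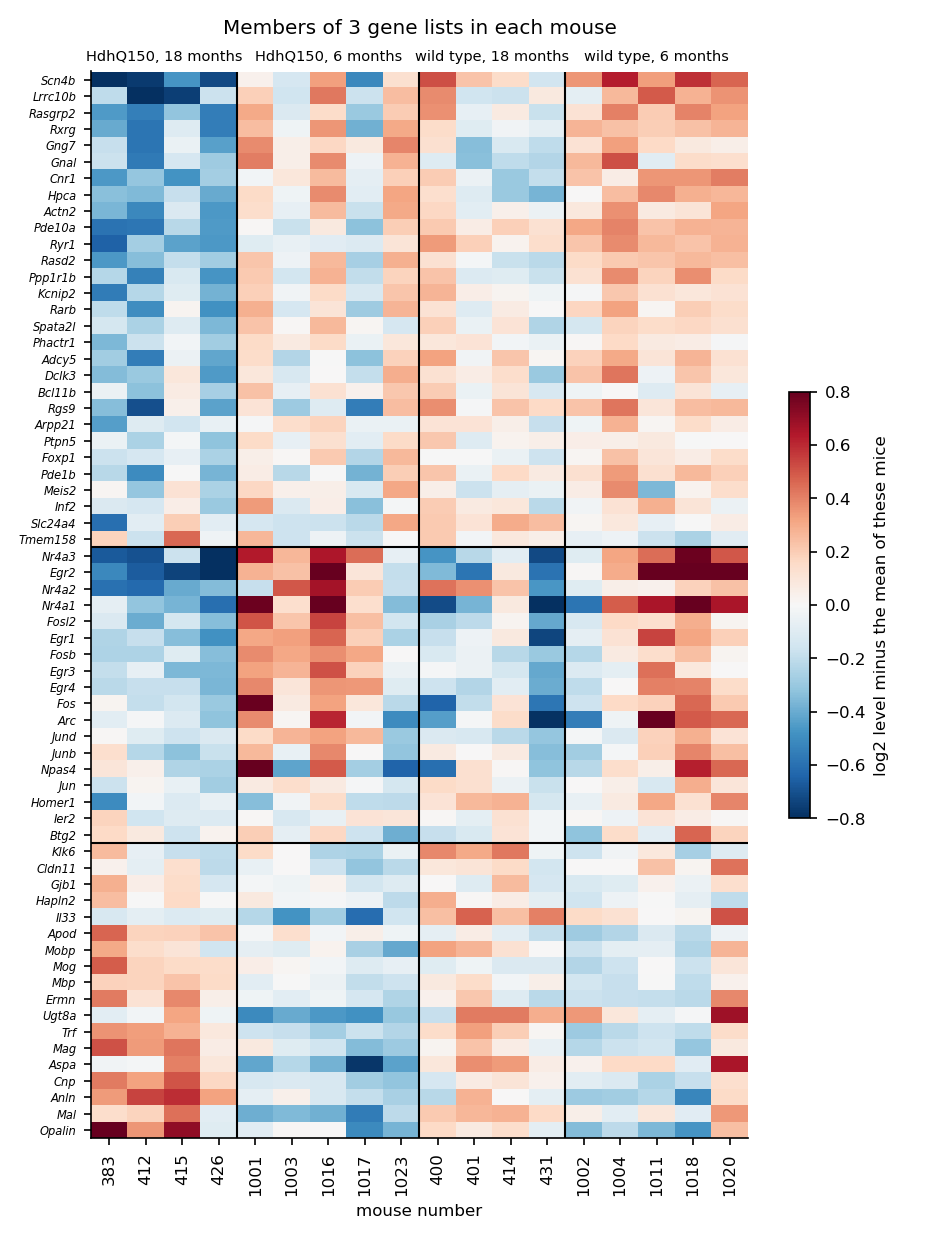
Level of each measured projection neuron gene (top block), immediate early gene (middle block) and myelin gene (bottom block) in each mouse, as log2 level minus the mean of the 18 mice shown, by group. The upper blocks are mostly blue in the 4 HdhQ150 mice of 18 months, least so in mouse 415 for the projection neuron genes, and the bottom block is mostly red there.

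Immediate early genes, which neurons switch on within minutes of activity, were lower at 18 months. Of 18 members 7 fell and 0 rose (38.9%, against 4.65% of all genes), and 17 differences were negative with a median of -0.42. By the unadjusted p under 0.05 in the limma fit, 11 were lower and 0 higher. The count ranged from 3 without mouse 1016 and 4 without mouse 1001 to 9 without mouse 1023. Those 2 younger mice had the higher values in most of the list, and mouse 1023 the lower ones. With the olfactory receptor covariate the median was -0.20 and 1 member, Egr2, passed. The sources used here do not describe handling before death, and its part was not tested.

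Nr4a3 (probe set 10504838) encodes an orphan nuclear receptor and had the largest fall of all named genes. It stood at 7.49, 7.47, 7.99 and 7.35 in the 18-month mice, against 8.80, 8.43, 8.81, 8.61 and 8.10 in the 6-month mice. There was no overlap, although mice 415 and 1023 came close. Nr4a3 fell by 1.01 (SE 0.16, limma adjusted p = 0.000507), or 2.01-fold. The zinc finger gene Egr2 (probe set 10363735) was 6.74, 6.59, 6.51 and 6.34 at 18 months and 7.53, 7.49, 8.06, 7.35 and 7.06 at 6 months. It had no overlap either and fell by 1.0 (SE 0.175, limma adjusted p = 0.00132). Its relatives Egr1, Egr3 and Egr4 fell by 0.51, 0.49 and 0.46, and the AP-1 genes Fosb and Fosl2 by 0.51 and 0.52 (limma adjusted p between 0.00305 and 0.0306). The members with the widest spread among the younger mice did not pass. Arc, a regulator of glutamate receptor uptake, had 9.14, 9.21, 9.11 and 8.90 at 18 months and 9.60, 9.24, 9.83, 9.20 and 8.72 at 6 months (-0.26, limma adjusted p = 0.561). Npas4 and Fos differed by -0.15 and -0.38 (limma adjusted p = 0.814 and 0.177).

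Of 16 circadian clock genes 5 fell and 0 rose (31.2%, against 4.65% of all genes), with a median of -0.13. They were the period genes Per1 and Per2, the PAR leucine zipper genes Dbp and Tef and the repressor gene Ciart. Per1, which glucocorticoids and activity also induce, stood at 9.01, 8.88, 8.88 and 8.79 in 18-month mice and 9.55, 9.39, 9.60, 9.43 and 9.04 in 6-month mice. The groups did not overlap, with mouse 1023 just above mouse 383, and Per1 fell by 0.53 (SE 0.106, limma adjusted p = 0.00388). Per2 fell by 0.40, Dbp by 0.31, Tef by 0.26 and Ciart by 0.39 (limma adjusted p between 0.0157 and 0.0298). Arntl, which encodes the activator BMAL1 and peaks opposite to the period genes, differed by -0.05 (limma adjusted p = 0.823). At an unadjusted p under 0.05 in the limma fit 7 were lower and 1 higher. The count that fell was 1 without mouse 1016, 2 without mouse 383, 3 without mouse 415 and 0 with the olfactory receptor covariate. The hour of death was not given and its part was not tested.

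Promoter sequences of Nr4a3, Egr2, Fosb, Sst, Ciart and Tef, genes that fell and whose promoters hold 1 of 2 motifs, were picked to show the motifs. These are known to recruit the factors that drive such genes. The stretches are the 250 bases before the start of transcription, 5′ to 3′ on the gene's strand, from RefSeq on assembly GRCm38.p6. Capitals mark the core TGACG of the cAMP response element (on either strand, so also CGTCA) in the first 4, and the E-box CACGTG, bound by clock proteins, in the last 2. This core was found in 19.8% of 27025 genes with a promoter entry and in 4 of 5 immediate early genes that fell and had one (Nr4a3, Egr2, Fosb and Egr4). In Sst both strands of the core overlap in the full element TGACGTCA, which 1.77% of the 27025 genes hold and none of those 5. The E-box was found in 6.86% of the 27025 genes and in 3 of 4 clock genes that fell and had an entry (Per1, Tef and Ciart). A gene counts in these shares if any of its listed starts has a match. For Egr2 and Tef, with 5 and 2 listed starts, the one with most matches is printed. No share was taken for members of these lists that did not fall, so the shares do not bear on the falls. A match is a stretch of letters and not a measured site.
Nr4a3, chr4:48045055-48045304 (+): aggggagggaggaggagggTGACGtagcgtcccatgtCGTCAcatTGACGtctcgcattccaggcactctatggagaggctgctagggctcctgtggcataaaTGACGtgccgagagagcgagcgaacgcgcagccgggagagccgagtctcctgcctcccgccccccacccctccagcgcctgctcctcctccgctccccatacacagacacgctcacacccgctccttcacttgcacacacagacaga
Egr2, chr10:67537619-67537868 (+): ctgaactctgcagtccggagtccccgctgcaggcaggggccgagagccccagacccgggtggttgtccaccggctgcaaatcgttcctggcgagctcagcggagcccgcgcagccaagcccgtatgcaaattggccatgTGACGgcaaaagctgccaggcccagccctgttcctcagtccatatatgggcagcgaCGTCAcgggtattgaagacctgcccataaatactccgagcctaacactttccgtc
Fosb, chr7:19310046-19310295 (-): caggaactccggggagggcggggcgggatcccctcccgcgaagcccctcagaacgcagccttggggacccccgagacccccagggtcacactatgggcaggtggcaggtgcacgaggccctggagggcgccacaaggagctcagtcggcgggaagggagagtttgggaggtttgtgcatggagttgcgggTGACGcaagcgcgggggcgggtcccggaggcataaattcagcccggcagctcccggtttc
Sst, chr16:23890845-23891094 (-): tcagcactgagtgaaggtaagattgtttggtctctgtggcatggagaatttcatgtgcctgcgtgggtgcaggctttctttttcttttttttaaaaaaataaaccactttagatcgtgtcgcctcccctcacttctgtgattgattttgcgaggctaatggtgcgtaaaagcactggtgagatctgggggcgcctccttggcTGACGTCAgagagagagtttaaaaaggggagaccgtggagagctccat
Ciart, chr3:95882229-95882478 (-): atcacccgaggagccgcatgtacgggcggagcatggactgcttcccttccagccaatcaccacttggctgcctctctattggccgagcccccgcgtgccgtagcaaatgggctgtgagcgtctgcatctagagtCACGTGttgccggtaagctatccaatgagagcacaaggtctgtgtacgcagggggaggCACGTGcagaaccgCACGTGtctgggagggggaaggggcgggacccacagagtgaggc
Tef, chr15:81802423-81802672 (+): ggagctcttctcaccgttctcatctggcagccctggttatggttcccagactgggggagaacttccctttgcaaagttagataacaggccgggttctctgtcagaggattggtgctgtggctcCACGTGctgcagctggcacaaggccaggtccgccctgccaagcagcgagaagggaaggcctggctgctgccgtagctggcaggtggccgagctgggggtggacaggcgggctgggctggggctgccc
Nr4a3 held 4 matches, Egr2 and Sst 2 each, Fosb 1, Ciart 3 and Tef 1.

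Metallothioneins are small proteins that bind zinc and copper, and glucocorticoids induce their genes Mt1 and Mt2, both of which fell. Mt2 (probe set 10574023, chromosome 8) was 11.39, 11.62, 11.17 and 11.21 in the 18-month mice, against 12.13, 12.04, 12.11, 12.21 and 11.89 in the 6-month mice. The groups lay well apart, and the difference was -0.74 (SE 0.106, limma adjusted p = 0.000226). Mt1 fell by 0.46 (limma adjusted p = 0.00166), whereas the brain form Mt3 differed by 0.05 (limma adjusted p = 0.742). Both falls passed with the olfactory receptor covariate (limma adjusted p = 0.000559 and 0.00447). They were the only members of 21 antioxidant genes to pass (9.52%, against 4.65% of all genes). Of 12 genes that glucocorticoids induce or that encode their receptors 2 fell (16.7%), Mt2 and Per1. Both were already counted above, in the antioxidant and clock lists. The list as a whole did not fall, since 9 differences were positive and the median was 0.10. By the unadjusted p under 0.05 in the limma fit 3 were higher and 2 lower. Of 20 chaperone genes 1 fell, the small heat shock gene Hspb1 (-0.78, SE 0.166, limma adjusted p = 0.00564). It was 8.25, 7.72, 7.53 and 7.56 at 18 months and 8.52, 8.60, 8.72, 8.86 and 8.12 at 6 months, with mouse 383 inside the younger range. This count equals 5.0% of the list, near the 4.65% of all genes, was 2 without mouse 1023, and was 0 with the olfactory receptor covariate.

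The smallest p among all genes belonged to Pcsk1n (probe set 10598493, chromosome X), named here after its values were seen, since the rule for named genes leaves out sex chromosomes. It encodes proSAAS, an inhibitor of the prohormone convertase that cleaves neuropeptide precursors. Its levels were 11.03, 11, 10.83 and 10.84 in the 18-month mice and 12.04, 11.76, 11.97, 11.89 and 11.78 in the 6-month mice. The gap between the groups was wide, and Pcsk1n fell by 0.96 (SE 0.077, limma adjusted p = 7.21e-09). Next in order was the ribonuclease gene Rnasek, at 9.80, 9.99, 9.88 and 9.76 in 18-month mice against 10.46, 10.37, 10.45, 10.49 and 10.54 in 6-month mice, likewise without overlap (-0.60, SE 0.0611, limma adjusted p = 1.12e-06). Arf1, a small GTPase of Golgi transport, fell by 0.54, the cytokine gene Mif by 0.49 and Celf3, which encodes a neuronal splicing factor, by 0.54 (limma adjusted p between 3.66e-05 and 7.21e-05). Dad1, a subunit of the oligosaccharyltransferase, Ccdc6, Tmem143, Sike1 and the translation repressor Eif4ebp2 fell by 0.45 to 0.61 (limma adjusted p between 0.000225 and 0.000288), each with no overlap. Pcsk1n and the 9 genes named with it all passed with the olfactory receptor covariate as well.

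Other large falls were less even among the mice. H2ac4, a histone gene with near-identical copies that could share probes, was 5.38, 4.39, 5.28 and 4.38 at 18 months and 5.68, 6.21, 6.17, 5.61 and 5.14 at 6 months (-0.87, limma adjusted p = 0.0401). The neuromedin B receptor gene Nmbr was 7.68, 6.62, 6.72 and 7.01 at 18 months and 8.22, 8, 7.43, 8.14 and 7.26 at 6 months (-0.74, limma adjusted p = 0.0481). Both sets of values overlapped between ages. Neither passed with the olfactory receptor covariate, nor without mouse 412, 426, 1001, 1003, 1016 or 1017, nor did Nmbr without mouse 415. Over 21 other fits H2ac4 missed the threshold in 10 and Nmbr in 13 (limma adjusted p between 0.00727 and 0.639 for H2ac4 and between 0.00933 and 0.175 for Nmbr).

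Myelin genes were higher at 18 months. Of 18 markers of mature oligodendrocytes 8 rose and 0 fell (44.4%, against 4.65% of all genes), all 18 differences were positive and the median was 0.30. With the unadjusted p of the limma fit under 0.05, 13 were higher and 0 lower. The 8 were Cnp, Mal, Mag, Trf, Mbp, Anln, Opalin and Aspa. The count was 5 without mouse 415 and up to 9 in the other fits that left out 1 mouse, and it was 5, with a median of 0.41, with the olfactory receptor covariate. None of 10 precursor markers passed (limma), with 1 lower at an unadjusted p under 0.05 and a median of 0.06. Of 10 markers of newly formed oligodendrocytes 1 rose, the choline phosphodiesterase gene Enpp6 (0.48, SE 0.107, limma adjusted p = 0.00804).

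Cnp (probe set 10381154, chromosome 11) encodes an enzyme of uncompacted myelin. It stood at 11, 10.91, 11.09 and 10.75 in the 18-month mice, against 10.46, 10.47, 10.46, 10.31 and 10.27 in the 6-month mice. Every older mouse lay above every younger one, with mouse 426 nearest to them. Cnp rose by 0.53 (SE 0.0899, limma adjusted p = 0.000931), 1.45-fold. Mal, a lipid raft protein of compact myelin, was 9.72, 9.76, 10.02 and 9.50 at 18 months and 9.19, 9.23, 9.20, 9.02 and 9.37 at 6 months. It too had no overlap and rose by 0.54 (SE 0.0931, limma adjusted p = 0.001). The myelin basic protein gene Mbp was 11.49, 11.48, 11.53 and 11.46 in 18-month mice and 11.22, 11.30, 11.26, 11.11 and 11.14 in 6-month mice, and rose by 0.29 (SE 0.0611, limma adjusted p = 0.00593). Mag, the adhesion protein between axon and myelin, rose by 0.51 and the iron carrier gene Trf by 0.46 (limma adjusted p = 0.00404 and 0.00547). Mag overlapped at mice 426 and 1001. Mog, a surface protein of the outermost myelin layer, differed by 0.27 and did not pass (limma adjusted p = 0.0675).

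Astrocyte genes split. Of 18 genes of reactive astrocytes (22.2% past the threshold, against 4.65% of all genes) 3 rose, namely C4b, Gfap and Osmr, and 1 fell, Hspb1. C4b (probe set 10450242, chromosome 17), which encodes complement component 4 and whose near-identical copy C4a could share probes, was 8.59, 8.44, 8.74 and 8.51 in the 18-month mice, against 7.83, 7.63, 7.61, 7.65 and 7.75 in the 6-month mice. The ages were far apart, and C4b had the smallest p of all named genes that rose (0.87, SE 0.106, limma adjusted p = 3.38e-05), 1.83-fold. Gfap (probe set 10391798, chromosome 11), the intermediate filament of astrocytes, was 9.21, 8.77, 8.48 and 8.83 at 18 months and 8.23, 8.26, 7.87, 8.27 and 7.71 at 6 months. It did not overlap and rose by 0.76 (SE 0.164, limma adjusted p = 0.00629). The oncostatin M receptor gene Osmr rose by 0.27 (limma adjusted p = 0.00901). Serpina3n, a protease inhibitor of the same state, differed by 0.70 with a wide error (SE 0.392, limma adjusted p = 0.35). Of 15 general astrocyte markers 5 fell (33.3%) and 0 rose, with 6 positive and 9 negative differences and a median of -0.10. The 5 were the neurotensin receptor gene Ntsr2 (-0.41), the transcription factor genes Sox9 (-0.38) and Gli3 (-0.30), the glutamate transporter gene Slc1a3 (-0.33) and the gap junction gene Gja1 (-0.33), with limma adjusted p between 0.00439 and 0.04. In wild type 3 of the 15 fell. In HdhQ150 mice Gja1 missed the threshold in 13 of 22 other fits (limma adjusted p up to 0.256). The water channel gene Aqp4 differed by 0.16 (limma adjusted p = 0.307). With the olfactory receptor covariate C4b and Gfap passed and none of the 5 that fell.

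Microglial and immune lists had 0 to 2 calls each. Where any member passed, the share was near or above the 4.65% of all genes. None of 16 homeostatic microglia markers passed (limma), with 3 higher and 1 lower at an unadjusted p under 0.05 and a median of 0.04, and their mean was 7.71 to 7.88 at 18 months and 7.70 to 7.82 at 6 months. Of 25 activated microglia genes 2 rose, the lysosomal protease gene Ctss (0.43, limma adjusted p = 0.0188) and the chemokine gene Ccl3 (0.39, limma adjusted p = 0.0248), and 21 differences were positive (8.0% past the threshold, with 9 higher by the unadjusted p under 0.05). Without mouse 415, 1001 or 1016 none of them rose. C3ar1, the receptor for a complement fragment, rose by 0.31 (limma adjusted p = 0.0376), the second of 12 complement genes beside C4b (16.7%), and missed the threshold without any of the HdhQ150 mice but 1017 or 1023. Of 23 interferon genes 1 rose (4.35%), the cell death gene Xaf1 (0.32, limma adjusted p = 0.0179), with a count of 2 without mouse 1003 and of 0 without 412, 415 or 1016. Of 16 antigen presentation genes 1 fell (6.25%), H2-DMa, which loads peptides onto class II molecules (-0.35, limma adjusted p = 0.0443). The count that fell was 0 without mouse 412, 415, 426, 1001, 1003 or 1016. Of 17 lymphocyte markers 1 fell (5.88%), Cd4 (-0.43, limma adjusted p = 0.0229), which missed the threshold without mouse 1023 (limma adjusted p = 0.0569) and without mouse 412, 426, 1001 or 1016. With the olfactory receptor covariate none of these but C4b passed.

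Of the genes of cell maintenance, 3 of 21 lysosome genes rose (14.3%, against 4.65% of all genes, and 1 without mouse 415 or 1016), the cholesterol transporter gene Npc1 (0.35, limma adjusted p = 0.00518), Ctss and the hexosaminidase subunit Hexa (0.25, limma adjusted p = 0.025). Of 31 proteasome subunits 2 rose (6.45%), Psma3 (0.41, limma adjusted p = 0.0134) and Psmb7 (0.29, limma adjusted p = 0.0398). Their count was 0 without mouse 415, 1 without 412, 1001, 1016 or 1017, and 5 in labelled females. Of 39 respiratory chain genes (12.8% past the threshold) 3 rose, Cox4i1 (0.48, SE 0.0723, limma adjusted p = 0.000299), Uqcrb (0.51, limma adjusted p = 0.00618) and Ndufs3 (0.19, limma adjusted p = 0.0328), and 2 fell, Uqcrc1 (-0.31, limma adjusted p = 0.0219) and Atp5d (-0.25, limma adjusted p = 0.0274). Cox4i1 encodes a subunit of cytochrome oxidase and stood at 9.90, 10.02, 10.09 and 10.01 in 18-month mice and 9.55, 9.68, 9.46, 9.57 and 9.39 in 6-month mice, with no overlap. The 2 that fell did not pass without mouse 415, 1001 or 1016, and 1 passed without 426 or 1017. Of 20 cholesterol synthesis genes 1 rose (5.0%), the lanosterol synthase gene Lss (0.26, limma adjusted p = 0.0365), with 4 without mouse 383, 3 without 1023, 2 without 1003 and 0 without any other HdhQ150 mouse. Of these lists Npc1, Psma3, Cox4i1 and 2 cholesterol genes passed with the olfactory receptor covariate. None of 13 senescence genes passed (limma), with 2 higher and 1 lower at an unadjusted p under 0.05, and none of 20 collagen and basement membrane genes, with 1 higher.

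Markers of neighbouring tissue gave few calls. None of 12 choroid plexus, 10 ependymal, 11 cortical or 6 thalamic markers passed (limma), nor had any an unadjusted p under 0.05, and their medians were -0.04, -0.03, 0.07 and 0.02. Of 9 septal and pallidal markers 1 fell (11.1%), Penk, which the indirect pathway list holds as well, and 2 fell without mouse 1003. Of 7 blood markers 1 was measured, with a difference of -0.02. All 12 meningeal and fibroblast genes had positive differences, with a median of 0.29, and 1 passed (8.33%, against 4.65% of all genes). It was the proteoglycan gene Ogn (0.86, limma adjusted p = 0.0432), at 8.22, 6.69, 6.64 and 6.69 in 18-month mice and 6.06, 6.21, 6.26, 6.34 and 5.94 in 6-month mice. Mouse 383 stood far above the rest. Without it the list's median was 0.016 and Ogn differed by 0.47 (limma adjusted p = 0.206). The count was also 0 without mouse 1001, 1016, 1017 or 1023 and 2 without 415. Of 14 genes of immature neurons 2 fell (14.3%, and 1 without any mouse but 415, 1003 or 1016), the tubulin gene Tubb2b (-0.39, limma adjusted p = 0.011) and the homeobox gene Dlx2 (-0.40, limma adjusted p = 0.0422), and of 15 proliferation genes 1 rose (6.67%, and 0 without mouse 412, 415, 1001, 1016 or 1017), the DNA clamp gene Pcna (0.41, limma adjusted p = 0.023). Of 19 vessel genes 1 rose (5.26%, and 0 without mouse 383, 412, 415, 1001 or 1016), the glucose transporter gene Slc2a1 (0.25, limma adjusted p = 0.029). Of the lists from choroid plexus to vessels, Penk alone passed with the olfactory receptor covariate.

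**Figure D4:**
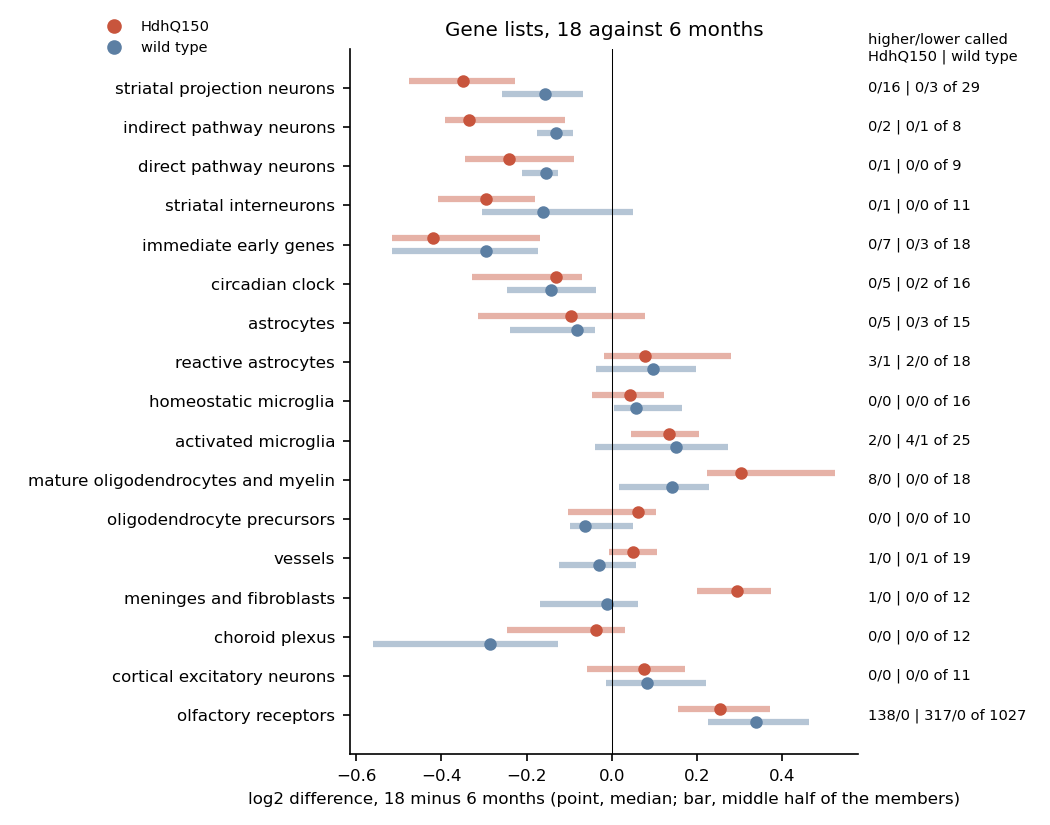
Median log2 difference of 18 minus 6 months over the measured members of each gene list (points, with bars over the middle 50% of members) in HdhQ150 (red) and wild-type (blue) mice, with the counts that rose and fell (limma) on the right. Projection neuron and immediate early genes lie left of 0 and myelin and olfactory receptor genes right of it in both genotypes.

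The other genes that led the rise belonged to no list. Anp32e (probe set 10494322, chromosome 3), a chaperone that removes a histone variant from chromatin, was 8.14, 8.54, 8.34 and 8.31 in the 18-month mice, against 7.49, 7.67, 7.54, 7.37 and 7.49 in the 6-month mice. The ages were apart, and Anp32e rose by 0.79 (SE 0.12, limma adjusted p = 0.000334). Cd82 (probe set 10485213, chromosome 2), a tetraspanin of the cell surface, was 9.50, 9.37, 9.37 and 9.17 at 18 months and 8.93, 8.80, 8.80, 8.87 and 8.86 at 6 months. It had no overlap and rose by 0.50 (SE 0.0738, limma adjusted p = 0.000288). Dexi, first found as a transcript induced by dexamethasone, rose by 0.42, Tmem141 by 0.44, the dynein light chain gene Dynll2 by 0.50 and the transcription cofactor gene Eya4 by 0.53 (limma adjusted p between 0.000225 and 0.000612). The endoplasmic prolyl isomerase gene Fkbp9 was 8.02, 8.08, 7.90 and 8.24 at 18 months and 7.25, 7.29, 7.28, 7.32 and 7.83 at 6 months. Mouse 1023 stood apart, and Fkbp9 rose by 0.63 with it (limma adjusted p = 0.000553) and by 0.73 without it (limma adjusted p = 4.29e-05). Mouse 1023 was likewise highest of its group for the aminopeptidase gene Lap3 (0.56, or 0.62 without it) and the nuclear RNA Malat1 (0.75, or 0.88 without it). The pseudogene Nlrp5-ps (0.93), the interferon gene Ifnz (0.99), which has near-identical copies, and the TFIID subunit gene Taf13 (0.79) completed the 8 largest rises among genes that the naming rule does not skip (limma adjusted p between 0.000971 and 0.0235). Ifnz did not pass without mouse 383, 412, 415, 1001 or 1016, nor with the olfactory receptor covariate (limma adjusted p = 0.328). Small RNA and predicted genes, which the rule skips, rose by up to 1.5.

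Wild-type littermates gave the change with age without the repeat. Between 18 and 6 months 1250 genes passed in wild type (6.27%), 662 higher (3.32%) and 588 lower (2.95%). Of these 339 passed in both genotypes, all in the same direction, which was 36.6% of the HdhQ150 calls and 27.1% of the wild-type calls. The groups of the 2 genotypes share no array, but both differences come from 1 fit with a shared sex term. In both genotypes the 6-month mice bear the higher numbers, so a batch that went with age would be common to both. Of the 927 HdhQ150 calls 858 (92.6%) had the same sign in wild type, against 63.5% of all genes, and across the 19938 genes, which are not independent replicates, the 2 differences correlated at r = 0.53. The median difference of the genes that rose in HdhQ150 mice was 0.41 in HdhQ150 mice and 0.25 in wild type, and that of the genes that fell was -0.33 in HdhQ150 mice and -0.21 in wild type. The calls were chosen on the HdhQ150 arrays, so the larger size there is a description.

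No gene's change with age differed between the genotypes at the threshold (limma, 0 of 19938 by the interaction, 0.0%). At an unadjusted p under 0.05 there were 1629, and the smallest adjusted p was 0.471. With array weights 6 genes passed. C4b rose in wild type by 1.18 (limma adjusted p = 1.19e-07), to 8.91, 8.81, 9.11 and 8.39 at 18 months, against 7.67, 7.57, 7.62, 7.53 and 7.66 at 6 months. Mt2, Pcsk1n, Rnasek and Arf1 fell in wild type by 0.85, 0.90, 0.62 and 0.63 (limma adjusted p between 7.52e-08 and 4.53e-05). Dexi, Tmem141 and Per1 differed there by 0.39, 0.46 and -0.53 (limma adjusted p between 0.000357 and 0.00433). The transketolase gene Tkt rose by 0.34 in HdhQ150 mice (limma adjusted p = 0.00363) and by 0.48 in wild type (limma adjusted p = 0.000217). Chga, which encodes the granule protein chromogranin A, differed by 0.24 in HdhQ150 mice (limma adjusted p = 0.235) and rose by 0.71 in wild type (limma adjusted p = 0.000404). The repressor gene Etv3 fell by 0.31 in HdhQ150 mice (limma adjusted p = 0.0129) and by 0.58 in wild type (limma adjusted p = 4.44e-05).

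The projection neuron and myelin lists had smaller medians in wild type. Of the 29 projection neuron genes 3 fell in wild type, with a median of -0.16, and in all 29 the difference between the changes was negative, with a median of -0.19. None passed the interaction (limma), and 8 had an unadjusted p under 0.05. These genes share arrays and cells and are not separate observations. The genotype difference over these markers, HdhQ150 minus wild type, had a median of -0.11 at 6 months, -0.25 at 12 months and -0.30 at 18 months. The 12-month wild-type group includes the mouse that stood apart from it. Of the 18 myelin genes 0 passed in wild type (limma), with 6 higher at an unadjusted p under 0.05 and a median of 0.14, and the changes differed by a median of 0.24, positive in 16. Again none passed the interaction, and 6 had an unadjusted p under 0.05. Cnp was 10.45, 10.65, 10.69 and 10.62 in 18-month wild type and 10.50, 10.47, 10.33, 10.40 and 10.72 in 6-month wild type (0.10, limma adjusted p = 0.547). Its change differed between the genotypes by 0.44 (unadjusted p = 0.00176 in the limma fit, adjusted p = 0.598). Immediate early genes had 3 of 18 that fell in wild type and a median of -0.30. In each genotype 11 of them were lower at an unadjusted p under 0.05 (limma). Their changes differed by a median of -0.04, negative in 10 and positive in 8. Clock genes had 2 of 16 that fell in wild type and a median of -0.14, and their changes differed by a median of 0.03.

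**Figure D5:**
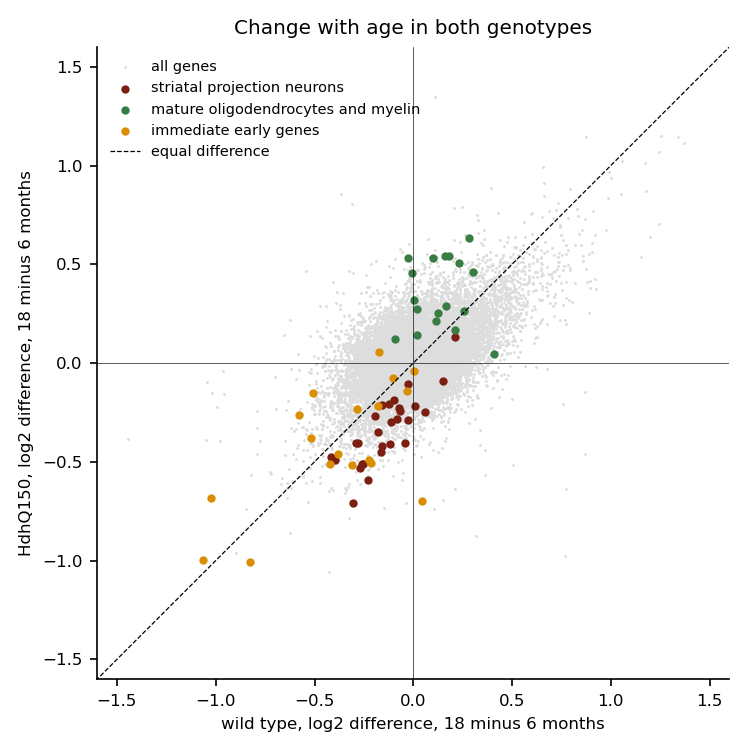
Log2 difference of 18 minus 6 months in HdhQ150 mice (vertical axis) against that in wild-type mice (horizontal axis), 1 point per gene, with the line of equal difference dashed. Most projection neuron genes (dark red) lie below the line and most myelin genes (green) above it, while immediate early genes (orange) lie on both sides.

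The genes with the smallest p for a difference between the genotypes, none past the threshold, included Kcng1 and Cd82. Kcng1 was 9.05, 8.88, 8.70 and 8.57 in 18-month and 8.55, 8.69, 8.78, 8.54 and 8.57 in 6-month wild-type mice, and its changes differed by -0.52 (limma adjusted p = 0.471). Cd82 differed with age by 0.50 in HdhQ150 and 0.05 in wild-type mice (limma adjusted p of the interaction 0.554). Fkbp9, named for its rise in HdhQ150 mice, differed by 0.63 and 0.08 (limma adjusted p of the interaction 0.598). Ipp, Zfp84, Tipin and Laptm4a had differences between the changes of 0.39 to 0.71, and Ajap1, Rasl10b, Sorcs2 and Rab3b of -0.56 to -0.35 (limma adjusted p between 0.471 and 0.598). Among these 8, Laptm4a, Sorcs2 and Rab3b passed in HdhQ150 mice and Zfp84, Ipp and Ajap1 in wild type.

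Values at 12 months came from different animals. Between 12 and 6 months 4599 of 19938 genes passed in HdhQ150 mice (limma), against 927 between 18 and 6 months. A value at 12 months need therefore not be a midpoint. The 12-month arrays share each step's other end with the comparison of 18 and 6 months, so the steps are given side by side without a test of their likeness. Projection neuron genes had a median of 0.25 for 12 minus 6 months and of -0.55 for 18 minus 12 months. Penk was 12.18, 12.24 and 11.52 on average at 6, 12 and 18 months in HdhQ150 mice, and fell by 0.71 between 12 and 18 months (limma adjusted p = 2.15e-05). Pde10a averaged 11.27, 11.60 and 10.85 and Scn4b 9.60, 9.76 and 8.90 at those ages. Wild-type mice were likewise highest at 12 months, with Pde10a at 11.61, 12.10 and 11.45 and Scn4b at 10.11, 10.58 and 9.82. The mean over the projection neuron list was 9.96, 10.34 and 9.82 in wild type. Gfap stood at 8.07, 7.99 and 8.82 in HdhQ150 mice (18 minus 12 months 0.84, limma adjusted p = 0.00118). In wild type it stood at 8.20, 7.85 and 8.79. Others had moved by 12 months. Mt2 averaged 12.07, 11.30 and 11.35, Pcsk1n 11.89, 11.11 and 10.93, and Cnp 10.39, 10.79 and 10.94 (12 minus 6 months -0.76, -0.78 and 0.40, limma adjusted p between 1.33e-08 and 0.00066). C4b rose at each step, averaging 7.69, 8.20 and 8.57 (0.51 and 0.36, limma adjusted p = 0.000303 and 0.0363). The 12-month arrays also differed in markers of cortex. Cortical neuron markers averaged 8.73 at 6, 7.73 at 12 and 8.78 at 18 months in HdhQ150 mice, and the medians of the 2 steps were -0.64 and 0.71. Their part in the values at 12 months was not tested.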

How the data were processed

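Each of the 29 arrays held RNA of 1 mouse, isolated with TRIzol and labelled with an Affymetrix WT kit, per the labels' protocols. The authors deposited log2 levels, made by RMA in Affymetrix Expression Console, as the submitters' processing notes say; the sources used here name no version, option or array batch. No array was dropped and no value imputed.

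The table held 35556 probe sets, of which 21789 carried 1 symbol by the platform annotation, 1621 several and 12146 are unnamed here. Of the first kind 21698 matched the RefSeq gene table (GRCm38.p6) by Entrez ID and 91 kept the annotation's name. The probe set with the highest mean stood for a gene (999 genes had several), which left 19938 genes. Of 74 called genes with several, 34 had another probe set called the same way and 0 the opposite way.

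Tests used limma 3.58.1 (R 4.3.3). One model over the 29 arrays had 6 group means and a labelled-sex term (22 residual degrees of freedom), with eBayes and its trend option, two-sided p and Benjamini-Hochberg adjustment over all genes, without a minimum fold or a filter on low levels. Replicates are separate animals by their numbers. The code was tested on simulated data.

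The text names, among genes past the threshold, the 12 with the smallest p and the 8 with the largest difference in each direction, Htt and 10 fixed genes (Drd1, Drd2, Penk, Pdyn, Tac1, Ppp1r1b, Cnr1, Pde10a, Gfap and Gpx6), up to 6 called members of each gene list, and the 5 with the smallest p in each direction for wild type and for the difference between genotypes. Predicted genes, clones, olfactory receptors, small RNA genes and sex chromosome genes were skipped but counted. List members beyond these were named after their values were seen. Some genes, such as Ryr1, Hpca, Kcnip2, Penk, Mt2, Per1, Ctss, Hspb1 and C4b, are members of another list too and count in each. Members and lists were chosen with earlier results of these data known.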

Additional observations from a re-analysis of the deposited data

Results flagged for a closer look

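In 15 of 228 groups of 4 or 5 mice, over the named genes, 1 mouse lay far from the others for its group's range. Were the groups independent, chance alone would do this in about 1 group in 20. They are not independent, because the genes share the same mice. Mouse 1023, the 6-month HdhQ150 mouse labelled female with male values of Xist and Eif2s3y, accounts for 9 of the 15. It was above the other 4 mice of its group for Fkbp9 (7.83, others 7.25 to 7.32), Lap3 (8.61, others 8.30 to 8.38), Malat1 (11.80, others 11.07 to 11.27), Htt (8.88, others 8.73 to 8.77) and Ryr1 (7.71, others 7.50 to 7.55). It was below them for Ajap1 (10.30, others 10.51 to 10.55), Fosb (8.01, others 8.32 to 8.39), Uqcrc1 (10, others 10.20 to 10.26) and Syn2 (10.45, others 10.65 to 10.71). Among the other 6-month HdhQ150 mice, 1003 was low for Pdyn (7.95, others 8.25 to 8.37) and 1001 for Osmr (6.42, others 6.51 to 6.54). At 18 months mouse 383 was high for Ogn (8.22, others 6.64 to 6.69). Mouse 415 was low for Nlrp5-ps (7.25, others 8.04 to 8.15), and mouse 426 was low for Rab3b (8.81, others 8.84 to 8.85) and Egr4 (7.46, others 7.61 to 7.64).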

How the results depend on the processing

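No paired analysis was possible because the mouse numbers are unique and no number recurs between ages. Against 927 genes past the threshold (473 of them lower), HdhQ150 counts were 1601 (968 higher) with all probe sets, 2489 (1417 higher, 1072 lower) with array weights, 1646 (936 higher, 710 lower) without mouse 1023 and a 12-month wild-type mouse, 598 (257 lower) with only the groups compared, and 153 (103 higher, 50 lower) with the olfactory receptor mean as a covariate, added after seeing the data. With mouse 1023 entered as male the HdhQ150 count was 820 (389 higher). Higher genes numbered 271 with median centring, where 606 were lower, and 270 in the upper 50% of genes. Leaving out 1 mouse gave 421 to 1015 genes, 166 to 481 higher and 255 to 534 lower, with the lowest counts without mouse 1016. Higher genes were 211 without mouse 412, 271 without 415 and 228 without 1001, and lower genes 290 without 1001. Wild-type counts, 1250 here, were 2375 with all probe sets, 708 in labelled females, 248 with only the groups compared, 694 in the upper 50%, 2395 with array weights and 48 with the covariate. They ran from 490 without the 18-month mouse WT-400 to 2437 without the 6-month mouse WT-1011, with 709, 729, 780 and 590 without WT-414, WT-431, WT-1018 and WT-1020. The interaction gave 6 genes with array weights and 0 in every other fit. The cause of these moves was not tested, beyond fewer samples or more features in some fits. No named gene that passed turned its sign in any fit. Of the 102, the number still past the threshold was 92 or more in all fits with every mouse except those with only the groups compared (77) and with the covariate (40). It was 71 without mouse 1016, 75 without 1001, 78 without 412 or 415, and 84 to 97 without any other HdhQ150 mouse of these ages.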
